A study of Homo sapiens with 8 samples.

Results

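Siglec-XII is the protein encoded by human SIGLEC12, and the study expressed it in Caco-2 cells, a line from a human colorectal adenocarcinoma that lacks it. Examined were 32 genes whose products take glucose into the cell, carry it through glycolysis, make and export lactate, and bring pyruvate into mitochondria. They were chosen by gene symbol for their place in the pathway, with earlier results of these data known, and looked up in an expression table of 63816 entries, with the entry of highest mean used where a symbol stood on more than 1 entry. RNA was sequenced from 8 samples, 4 of cells carrying the empty pCDNA-3.1 plasmid (the empty vector group, labelled as control) and 4 of cells carrying the same plasmid with SIGLEC12. Both groups had been selected for stable uptake of the plasmid with the drug G418, so selection was shared. Each group came from its own transfection and selection, so an effect of SIGLEC12 and a difference between the selected cells cannot be told apart. The sources do not tie the 4 samples of a group to separate cultures, since the design text speaks of 3 cultures for each condition and the methods of technical libraries. The p-values below therefore measure the spread between these samples, which may be technical.

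Glycolysis splits glucose into pyruvate and yields a small amount of ATP and NADH. Lactate dehydrogenase turns pyruvate into lactate and recovers NAD+, and monocarboxylate transporters carry lactate out of or into the cell. Pyruvate that enters mitochondria is made into acetyl-CoA by pyruvate dehydrogenase, which pyruvate dehydrogenase kinases switch off. Colorectal carcinoma cells, like many dividing cells, are known for high glucose uptake and lactate release even where oxygen is at hand.

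The table held log2(TPM + 1), where TPM is a transcript abundance corrected for transcript length and scaled to a fixed total, and every sample summed to 1000000 TPM. The labels give an approximate depth of 25000000 to 40000000 reads for all samples alike, and the count behind each sample or value cannot be read from TPM. Each entry carried 1 transcript name beside a gene ID. The methods describe counting per gene with featureCounts, a program that TPM from kallisto does not need. The entries of each sample sum to the full 1000000 TPM, which 1 named transcript per gene would reach only if rescaled. The entries thus read as gene totals, although the sources do not say so. SIGLEC12 itself was at 0.11 ± 0.05 log2(TPM + 1) in the empty vector group and 10.70 ± 0.06 in the SIGLEC12 group (SD, n = 4 each, exact permutation p = 0.0286, the smallest that 70 labellings allow). Of 15 markers of intestinal epithelium, 6 passed the filter on low values (CDX1, CDX2, EPCAM, KRT8, KRT18 and KRT19), while KRT20 and FABP1 were at 0 in all 8 samples and VIL1 was at 0.537 ± 0.25 and 0.745 ± 0.395 TPM. Of 14 trophoblast genes, 9 passed, XAGE2 at 803 ± 34.7 and 729.8 ± 22.9 TPM among them, so the samples are named by their labels alone. The summed level of the intestinal list ran from 8147 to 9105 TPM with empty vector and from 9718 to 10091 TPM with SIGLEC12, and that of the trophoblast list from 1513 to 1561 TPM and from 1396 to 1474 TPM. At an unadjusted limma p of 0.05 or less, 5 of the 6 tested intestinal markers were higher with SIGLEC12 and 1 of the 9 trophoblast genes was lower, against 13.9% and 2.61% of all entries. Without overlap between the groups, 2 of the 6 were higher and 1 of the 9 was lower, against 9.17% and 1.68% of all entries. Whether the markers that passed belong to 1 cell type only was not tested, so the sums do not measure identity. The part of these markers in the results that follow was not tested either. Correlations across entries were 0.979 to 0.984 within groups and 0.972 to 0.980 between them.

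All 32 genes passed the filter of at least 1 TPM in at least 4 samples, as did 15590 entries in all. GAPDH stood highest, at 3587 TPM over the 8 samples, followed by ENO1, SLC2A3, LDHB and LDHA, the last of these at 1382 TPM. PFKFB2, PFKFB3, ENO2 and PDK3 were under 10 TPM. The 10 most abundant genes held 90.8% of the summed TPM of the 32. The enzymes of the lower pathway and the transporter SLC2A3 thus made up most of the RNA of the set, and the regulators of the pathway were rare.

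**Figure D1:**
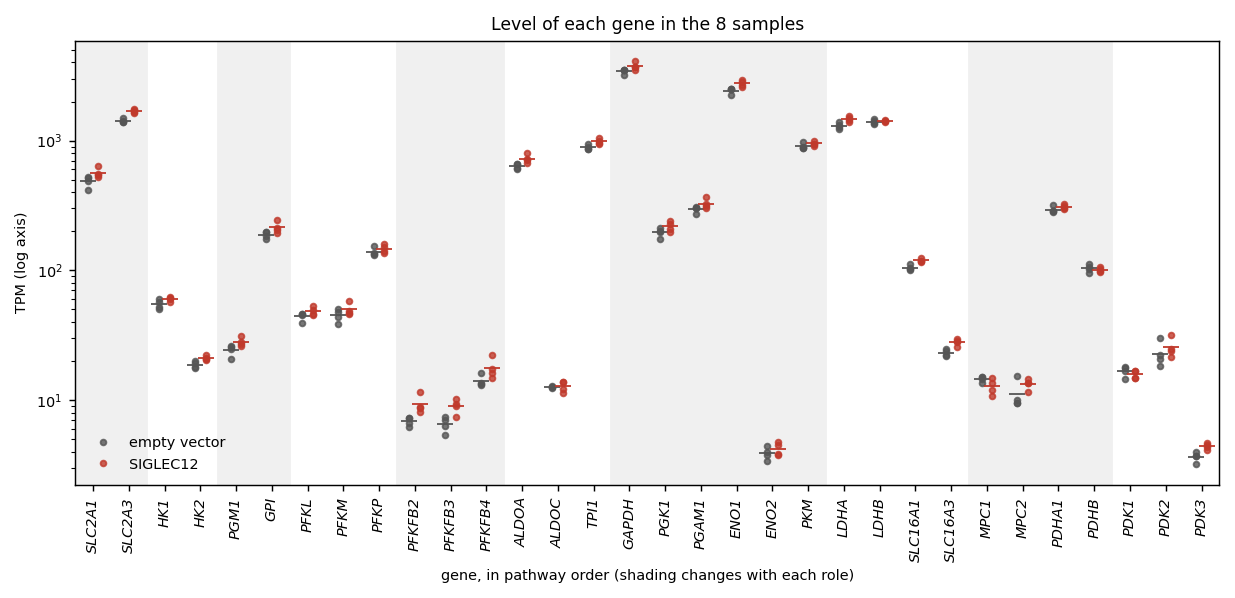
Level of the 32 genes in TPM on a log axis, with a point for each of the 4 empty vector (grey) and 4 SIGLEC12 (red) samples and a bar at each group mean. The genes span from about 4 TPM for PDK3 and ENO2 to 3587 TPM for GAPDH, a range far wider than the distance between the groups at any gene.

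The main comparison asked whether these genes differed between SIGLEC12 and empty vector cells. Differences were small and mostly upward. The fitted log2 difference, SIGLEC12 minus empty vector, was above 0 for 29 of 32 genes, where 68.1% of all tested entries were above 0, and its median was 0.16 against 0.07 over all tested entries. It ran from -0.18 for MPC1 to 0.41 for PFKFB3. After Benjamini-Hochberg adjustment over all entries in limma, 1 gene passed at 0.05, the glucose transporter SLC2A3, which rose (0.34% of all entries were called higher and 0.308% lower). Of 23 alternative fits that held SLC2A3, 10 kept its adjusted p under 0.05. Among these 10 were the fits that summed repeated entries, pseudogenes or SLC2A14, which changed the values of SLC2A3 little or not at all. At an unadjusted limma p of 0.05 or less, 15 of 32 genes were higher, against 13.9% of all entries, and 0 were lower, against 2.61%. In a fit of entries with a mean of at least 5 TPM, 50% of the genes held were higher, against 17.4% of entries. In a fit of protein-coding entries, 15 of 32 were higher, against 16.5% of entries. None of the genes was lower in either fit, against 2.76% and 2.37% of entries. The 4 SIGLEC12 samples lay above all 4 empty vector samples for 13 genes, against 9.17% of entries, and below them for 0 genes, against 1.68%.

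The 15 genes were SLC2A1, SLC2A3, HK2, PGM1, GPI, PFKFB2, PFKFB3, PFKFB4, ALDOA, TPI1, ENO1, LDHA, SLC16A1, SLC16A3 and PDK3. They lay at glucose uptake (2 of 2), at the entry of sugar phosphates (HK2, PGM1 and GPI, 3 of 4), at the control of phosphofructokinase (3 of 3), at the aldolase and triose steps (2 of 3), at enolase, and at lactate formation and transport (3 of 4). None of the 3 phosphofructokinases, none of the 4 genes of pyruvate entry and 1 of the 3 pyruvate dehydrogenase kinases were among them. Over all entries 13.9% were higher at this p, and steps of so few genes were not compared with each other. The comparison was also made over 25 fits, the reported one and its alternatives. At an unadjusted limma p of 0.05 or less, 7 of the 32 genes were higher in every fit that held them. They were SLC2A3, PFKFB2, PFKFB3, ALDOA, ENO1, SLC16A1 and SLC16A3, all among the 15. Of all entries tested, 4.24% were higher in every fit that held them. The fits share the same 8 samples. In bulk RNA, a change in the number of cells of a kind and a change in RNA per cell cannot be told apart.

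Without SIGLEC12 replicate 4, 9 genes were higher and 1 (MPC1) was lower at that p, against 10.2% of entries higher and 2.58% lower, and without empty vector replicate 1, 13 were higher and 0 lower, against 10.3% and 3.32%. With quantile normalization 11 were higher and 1 lower, against 7.02% of entries higher and 5.63% lower. Equal upper quartiles gave 7 and 1, against 7.2% and 5.68%. With the trend of the differences along transcript length removed, 7 were higher and 1 lower, against 6.57% and 5.85%. In these 3 fits, 1 lower gene of 32 was a smaller share than that of all entries. The length used was that of the 1 transcript named for each entry, 432 bases for PFKP. Since the entries read as gene totals, this length may not suit them.

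**Figure D2:**
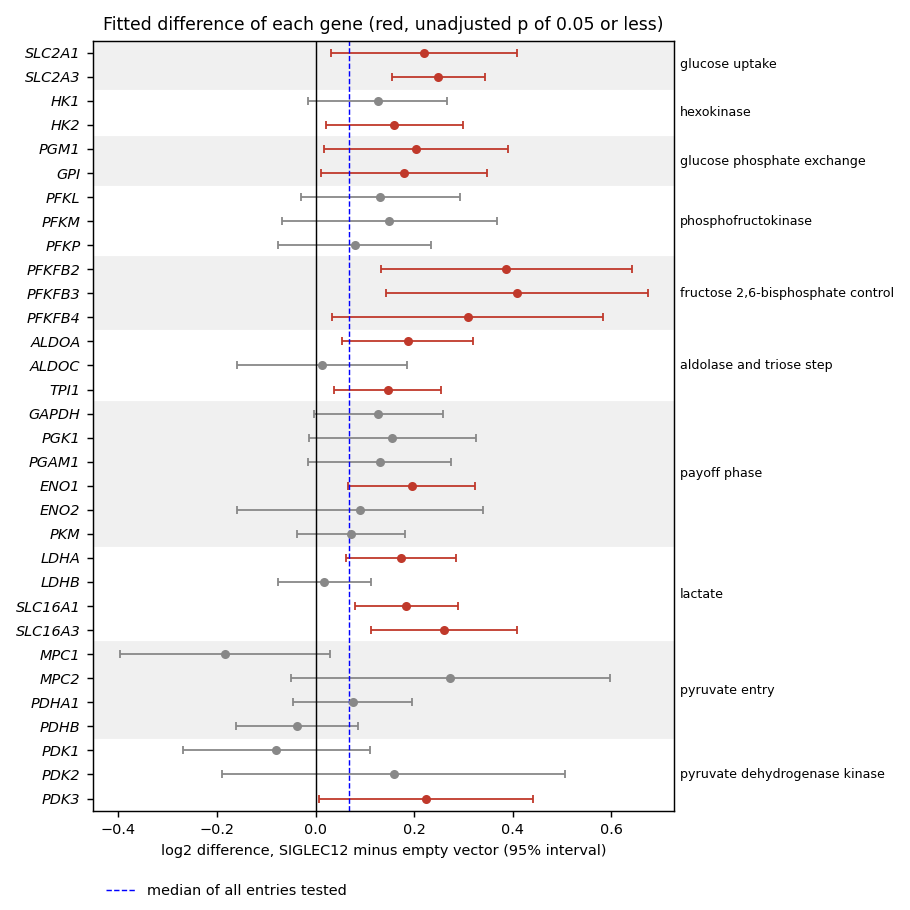
Fitted log2 difference of each gene with its 95% interval, grouped by role, where red marks an unadjusted p of 0.05 or less and the dashed line marks the median of all 15590 tested entries, 0.07. The intervals of the glucose transporters, the PFKFB enzymes, ALDOA, TPI1, ENO1, LDHA and both lactate transporters lie above 0, while those of the phosphofructokinases and of pyruvate entry include 0. Among the red genes, the intervals of SLC2A3, PFKFB2, PFKFB3, SLC16A1 and SLC16A3 also lie above the dashed line. Those of the other red genes reach below it, that of ENO1 only just.

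The samples did not contribute evenly. Empty vector replicate 1 had the lowest value of the 8 samples for 18 of 32 genes, and SIGLEC12 replicate 4 had the highest for 19. The number of genes above their own 8-sample median was 5, 7, 8 and 9 in the empty vector samples and 23, 22, 24 and 30 in the SIGLEC12 samples. Together the 32 genes took 1.39, 1.47, 1.48 and 1.48% of all TPM in the empty vector samples and 1.55, 1.57, 1.62 and 1.71% in the SIGLEC12 samples, so the groups did not overlap. The group means were 1.45 ± 0.0414% and 1.61 ± 0.0709% (SD, n = 4 each). The share of TPM from mitochondrially encoded genes was 11.2, 8.49, 9.65 and 7.92% in the empty vector samples and 8.53, 9.97, 7.92 and 6.67% in the SIGLEC12 samples. It was highest in empty vector replicate 1 and lowest in SIGLEC12 replicate 4. With TPM rescaled to a total without these genes and without the 100 most abundant entries, 10 of the 32 genes were higher and 1 lower at an unadjusted p of 0.05 or less, against 8.43% of entries higher and 4.23% lower. With 5 members that are among those entries left out too, the counts were 7 and 1 of 27, against 8.4% and 4.23%. With empty vector replicate 1 and SIGLEC12 replicate 4 left out together, 10 genes were higher and 1 lower at an unadjusted p of 0.05 or less, against 8.61% of entries higher and 3.62% lower, and the median difference was 0.11.

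**Figure D3:**
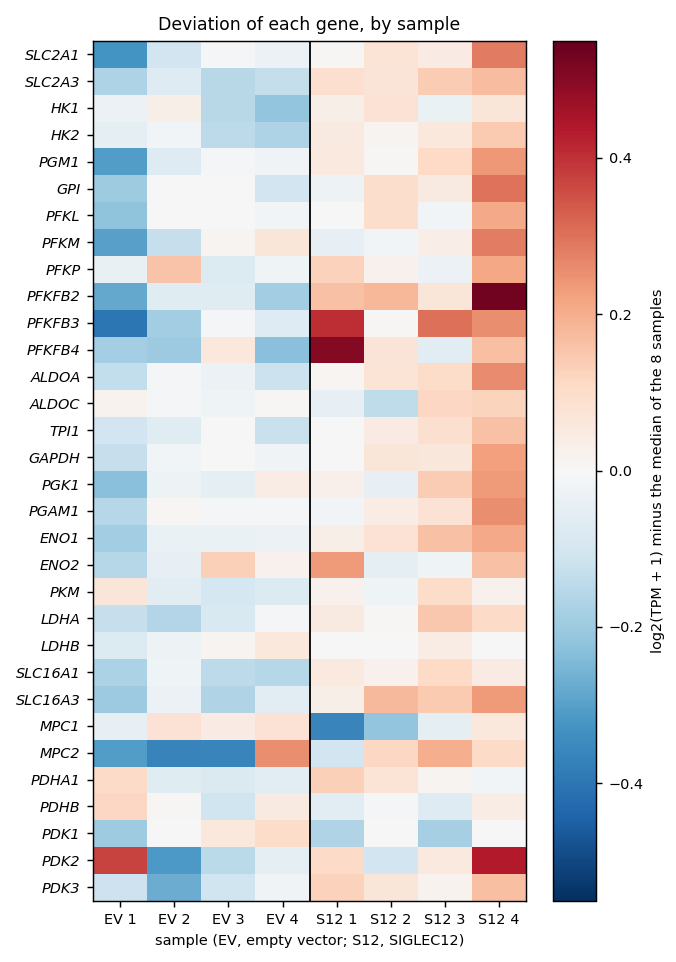
Deviation of each gene from its median over the 8 samples, in log2(TPM + 1), with samples in columns and blue for lower and red for higher values. The first empty vector column is blue for most genes and the fourth SIGLEC12 column red for most, with PDK2, MPC2 and MPC1 among those that follow other patterns.

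The starts of these genes were read for short motifs, since many of them are textbook targets of the hypoxia-inducible factors and of MYC. The letters searched, on both strands, were ACGTG and GCGTG, cores of the hypoxia response element, and CACGTG, an E-box, which contains ACGTG, so that each CACGTG is counted under both. In RefSeq windows on GRCh38.p14 covering the 250 bases before a start, ACGTG was in 18.5% of all 35116 windows and in 21 of the 61 windows of the 29 genes that had one. GCGTG was in 32.2% of all windows and in 20 of the 61, and CACGTG in 6.34% and in 8 of the 61. Windows of 1 gene overlap one another, so they are not independent. No window was in the table for SLC2A3, PFKFB2 and SLC16A1. Shown are 1 window each of SLC16A3, LDHA and PFKFB3, the 3 genes of smallest p with a window that holds ACGTG. The window shown is the only one of its gene with ACGTG, and the other windows of these 3 genes held none. Beside them is the window of LDHB, the lactate dehydrogenase that differed little. This set was picked after the values were seen. ACGTG was also in windows of ALDOC and PDHB, which differed little, and in no window of SLC2A1 and ENO1, which were higher. The windows shown therefore do not compare higher genes with the rest. Each window is written 5′ to 3′ on the gene's strand, and capitals mark ACGTG, its reverse complement CACGT, or the 2 overlapping as CACGTG.
SLC16A3: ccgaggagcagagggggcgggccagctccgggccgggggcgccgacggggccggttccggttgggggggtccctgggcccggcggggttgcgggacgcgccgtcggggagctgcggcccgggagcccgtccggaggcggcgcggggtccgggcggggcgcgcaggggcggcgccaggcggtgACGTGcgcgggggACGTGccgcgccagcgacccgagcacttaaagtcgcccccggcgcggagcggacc
LDHA: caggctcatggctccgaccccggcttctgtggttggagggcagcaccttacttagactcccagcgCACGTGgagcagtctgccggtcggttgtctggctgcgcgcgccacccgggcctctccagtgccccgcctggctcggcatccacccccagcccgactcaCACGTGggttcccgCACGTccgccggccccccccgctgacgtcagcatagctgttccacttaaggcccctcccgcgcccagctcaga
PFKFB3: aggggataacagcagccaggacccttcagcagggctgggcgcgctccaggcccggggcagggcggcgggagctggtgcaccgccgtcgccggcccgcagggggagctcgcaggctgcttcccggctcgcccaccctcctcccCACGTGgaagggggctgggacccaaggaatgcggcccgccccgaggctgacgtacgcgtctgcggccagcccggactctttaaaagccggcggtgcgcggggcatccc
LDHB: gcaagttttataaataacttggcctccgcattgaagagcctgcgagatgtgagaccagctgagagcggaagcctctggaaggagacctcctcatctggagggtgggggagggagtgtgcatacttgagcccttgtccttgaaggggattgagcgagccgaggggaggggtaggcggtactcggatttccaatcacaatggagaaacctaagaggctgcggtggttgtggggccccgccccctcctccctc
The SLC16A3 window is chr17:82228792-82229041 on the plus strand, with runs starting 68 and 55 bases before the start. That of LDHA is chr11:18394313-18394562 on the plus strand, with runs at 185, 87 and 73 bases before the start, 2 of them E-boxes. The PFKFB3 window, chr10:6202682-6202931 on the plus strand, held 1 E-box, 108 bases before the start. The LDHB window, chr12:21657843-21658092 on the minus strand, held no ACGTG on either strand, which says nothing of sequence outside it. A match is a description of letters and not a binding site.

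At the cell surface, both glucose transporters were higher at an unadjusted p of 0.05 or less, against 13.9% of all entries. SLC2A3 (ENSG00000059804, chr12:8071826-8171603 on hg19, minus strand) encodes GLUT3, a transporter of high affinity for glucose, and was the more abundant of the pair. It stood at 1386, 1486, 1403 and 1427 TPM in empty vector replicates 1 to 4 and at 1664, 1639.8, 1719 and 1754 TPM in SIGLEC12 replicates 1 to 4. All SIGLEC12 samples lay above all empty vector samples, and the samples of each group lay close together. The log2 difference was 0.25 (SE 0.0422, 95% interval 0.15 to 0.34, limma, Benjamini-Hochberg adjusted p = 0.0371), a rise of 18.8%.

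SLC2A3 shares much of its sequence with SLC2A14, between which reads can be divided. SLC2A14 stood at 44.7 to 68.6 TPM, 3.22 to 3.91% of SLC2A3, with a log2 difference of 0.26 (SE 0.0764, limma, Benjamini-Hochberg adjusted p = 0.150), and the 2 summed differed by 0.25 (adjusted p = 0.0398). The call of SLC2A3 was lost in limma without a filter on low values (adjusted p = 0.135), with equal upper quartiles (adjusted p = 0.0733), with no mean-variance trend (adjusted p = 0.127) and with the length trend removed (adjusted p = 0.123). It also did not hold in 7 of the 8 fits that left out 1 sample. Its limma adjusted p was 0.0928 without empty vector replicate 1, 0.145 without replicate 3 and 0.0866 without replicate 4. Without SIGLEC12 replicates 1 to 4 in turn it was 0.121, 0.0952, 0.136 and 0.108, and it stayed under 0.05 (0.0424) without empty vector replicate 2.

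SLC2A1 (ENSG00000117394, chr1:43391024-43424564, minus strand) encodes GLUT1, the transporter of basal glucose uptake in most cells. Its level was 418, 488, 524 and 515 TPM with empty vector and 528, 554, 542 and 641 TPM with SIGLEC12. The groups did not overlap, but the closest samples were 524 and 528 TPM, and the lowest and highest values belonged to empty vector replicate 1 and SIGLEC12 replicate 4. The log2 difference was 0.22 (SE 0.0837, 95% interval 0.03 to 0.41, limma, Benjamini-Hochberg adjusted p = 0.239). SLC2A1 made up 25.4 ± 1.81% of the TPM of the pair with empty vector and 25.0 ± 1.30% with SIGLEC12 (exact permutation p = 0.771).

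Inside the cell, hexokinase traps glucose as its 6-phosphate. HK1 (ENSG00000156515, chr10:71029740-71161640), the housekeeping form, was the more abundant, at 57.3, 59.9, 52.6 and 50.3 TPM with empty vector and 59.9, 61.9, 57.04 and 61.4 TPM with SIGLEC12. Its groups overlapped, and the log2 difference was 0.13 (SE 0.0625, 95% interval -0.01 to 0.27, limma, Benjamini-Hochberg adjusted p = 0.351). HK2 (ENSG00000159399, chr2:75061254-75120486), a form that many tumours express, stood at 19.4, 19.9, 18.1 and 17.8 TPM and 20.8, 20.3, 20.97 and 22.3 TPM in the same order. Every SIGLEC12 sample was above the empty vector samples, and the spread within each group was small. Its log2 difference was 0.16 (SE 0.0616, 95% interval 0.02 to 0.30, limma, Benjamini-Hochberg adjusted p = 0.245).

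PGM1 (ENSG00000079739, chr1:64059082-64125916) links glucose 1-phosphate from glycogen with glucose 6-phosphate. It was at 20.9, 24.8, 25.99 and 25.8 TPM with empty vector and 27.1, 26.3, 28.3 and 31.03 TPM with SIGLEC12, without overlap. The log2 difference was 0.20 (SE 0.0827, 95% interval 0.02 to 0.39, limma, Benjamini-Hochberg adjusted p = 0.266). GPI (ENSG00000105220, chr19:34850385-34893318), which makes fructose 6-phosphate, was at 174, 199, 198 and 185 TPM and 195, 213, 206 and 245 TPM. SIGLEC12 replicate 1 fell below 2 of the empty vector samples, so the groups overlapped. The log2 difference of GPI was 0.18 (SE 0.0748, 95% interval 0.01 to 0.35, limma, Benjamini-Hochberg adjusted p = 0.276). A further entry under the symbol GPI, at 9.77 to 16.2 TPM, was not used, and adding it changed no call among the 32 genes.

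Phosphofructokinase commits the sugar to glycolysis. None of its 3 genes reached an unadjusted p of 0.05, at which 13.9% of all entries were higher and 2.61% lower. The platelet-type PFKP (ENSG00000067057, chr10:3108525-3179910) was the most abundant, at 135, 154, 131 and 136 TPM with empty vector and 151, 140.5, 135 and 161 TPM with SIGLEC12. These groups overlapped throughout, with a log2 difference of 0.08 (SE 0.0688, 95% interval -0.08 to 0.23, limma, Benjamini-Hochberg adjusted p = 0.603). The liver-type PFKL was at 44.2 ± 3.24 TPM with empty vector and 48.4 ± 3.58 TPM with SIGLEC12, and the muscle-type PFKM at 45.04 ± 5.12 TPM with empty vector and 50.04 ± 5.49 TPM with SIGLEC12 (SD, n = 4 each). Their log2 differences were 0.13 and 0.15, with 95% intervals from -0.03 to 0.29 and from -0.07 to 0.37. PFKP held 60.9 ± 2.79% of the TPM of the 3 with empty vector and 59.9 ± 1.54% with SIGLEC12 (exact permutation p = 0.543).

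The PFKFB enzymes make and break fructose 2,6-bisphosphate, the strongest activator of phosphofructokinase, and their 3 genes had the largest log2 differences of all 32. They were also rare. PFKFB3 (ENSG00000170525, chr10:6186897-6296607), the form with the highest ratio of kinase to phosphatase activity, was at 5.38, 6.37, 7.38 and 7.01 TPM with empty vector and 10.1, 7.43, 9.38 and 9.03 TPM with SIGLEC12. The groups were separate by a narrow gap, from 7.38 to 7.43 TPM, with SIGLEC12 replicate 2 the closest. On the log2 scale the groups differed by 0.41 (SE 0.118, 95% interval 0.14 to 0.67, limma, Benjamini-Hochberg adjusted p = 0.15), or 32.7% on that scale.

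PFKFB2 (ENSG00000123836, chr1:207207711-207254369), the heart form, was at 6.16, 7.32, 7.30 and 6.62 TPM and 8.72, 8.89, 8.10 and 11.6 TPM, with SIGLEC12 replicate 4 well above the rest and no overlap. Its log2 difference was 0.39 (SE 0.113, 95% interval 0.13 to 0.64, limma, Benjamini-Hochberg adjusted p = 0.153). PFKFB4 (ENSG00000114268, chr3:48555117-48599448, minus strand), the most abundant of the 3, was at 13.5, 13.3, 16.2 and 13.1 TPM with empty vector and 22.4, 16.3, 14.8 and 17.5 TPM with SIGLEC12. SIGLEC12 replicate 1 stood far above the others, and replicate 3 fell below empty vector replicate 3, so the groups overlapped. Between the group means lay a log2 difference of 0.31 (SE 0.122, 95% interval 0.03 to 0.58, limma, Benjamini-Hochberg adjusted p = 0.256). The share of PFKFB3 within the 3 was 23.8 ± 1.95% and 25.0 ± 2.78% (exact permutation p = 0.571).

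Aldolase splits the sugar bisphosphate and triose phosphate isomerase makes its products interchangeable. ALDOA (ENSG00000149925, chr16:30075485-30081778), the muscle and general form, carried nearly all aldolase RNA, at 609, 665, 654 and 616 TPM with empty vector and 674, 706, 718 and 802 TPM with SIGLEC12. The groups did not overlap, and SIGLEC12 replicate 4 was the highest. Its log2 difference was 0.19 (SE 0.0590, 95% interval 0.05 to 0.32, limma, Benjamini-Hochberg adjusted p = 0.18). The brain form ALDOC was at 12.6 ± 0.178 TPM with empty vector and 12.8 ± 1.20 TPM with SIGLEC12, a log2 difference of 0.01 with a 95% interval of -0.16 to 0.19. Its share of aldolase TPM was 1.94 ± 0.107% with empty vector and 1.73 ± 0.125% with SIGLEC12 (exact permutation p = 0.0857).

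TPI1 (ENSG00000111669, chr12:6976283-6980112) was at 868, 895, 936 and 860.2 TPM with empty vector and 936, 964, 994 and 1046 TPM with SIGLEC12. The groups met at 936 TPM, the highest empty vector and the lowest SIGLEC12 value, and did not cross. The fit gave a log2 difference of 0.15 (SE 0.0480, 95% interval 0.04 to 0.25, limma, Benjamini-Hochberg adjusted p = 0.194).

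The payoff phase yields ATP and NADH. There, 1 of 6 genes was higher at an unadjusted p of 0.05 or less, against 13.9% of all entries. ENO1 (ENSG00000074800, chr1:8921059-8939249, minus strand), which makes phosphoenolpyruvate, stood at 2229, 2482, 2482 and 2489 TPM with empty vector and 2606, 2690.2, 2846 and 2942 TPM with SIGLEC12. Empty vector replicates 2 to 4 lay close together, replicate 1 was lower, and every SIGLEC12 sample was higher. On the log2 scale the groups differed by 0.19 (SE 0.0570, 95% interval 0.07 to 0.32, limma, Benjamini-Hochberg adjusted p = 0.153). The neuronal form ENO2 was near 4 TPM, at 3.90 ± 0.411 TPM with empty vector and 4.22 ± 0.504 TPM with SIGLEC12, and held under 0.2% of enolase TPM in every sample.

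GAPDH (ENSG00000111640, chr12:6643678-6647540), the oxidative step and a common reference gene, was at 3227, 3482, 3525 and 3471 TPM with empty vector and 3515, 3685, 3676 and 4112 TPM with SIGLEC12. SIGLEC12 replicate 1 fell just below empty vector replicate 3, so the groups overlapped, and the log2 difference was 0.13 (SE 0.0583, 95% interval -0.0034 to 0.26, limma, Benjamini-Hochberg adjusted p = 0.314). PGK1 (ENSG00000102144, chrX:77166236-77384792), which makes the first ATP, was at 196 ± 15.3 TPM with empty vector and 219 ± 18.96 TPM with SIGLEC12 (SD, n = 4 each), a log2 difference of 0.16 (SE 0.0752, 95% interval -0.01 to 0.32, limma, Benjamini-Hochberg adjusted p = 0.339). PGAM1 (ENSG00000171314, chr10:99185948-99193201), the mutase that follows, was at 297 ± 15.4 TPM with empty vector and 326 ± 27.2 TPM with SIGLEC12, with a log2 difference of 0.13 (SE 0.0645, 95% interval -0.01 to 0.28, limma, Benjamini-Hochberg adjusted p = 0.35). For all 3 genes the groups overlapped and the interval reached just below 0.

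PKM (ENSG00000067225, chr15:72491370-72524160, minus strand), pyruvate kinase, had its highest empty vector value in replicate 1, where most of the genes were lowest. It was at 974, 893, 871 and 882 TPM with empty vector and 945, 915, 996 and 944 TPM with SIGLEC12. The overlap was wide, and the log2 difference was 0.07 (SE 0.0485, 95% interval -0.04 to 0.18, limma, Benjamini-Hochberg adjusted p = 0.493).

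**Figure D4:**
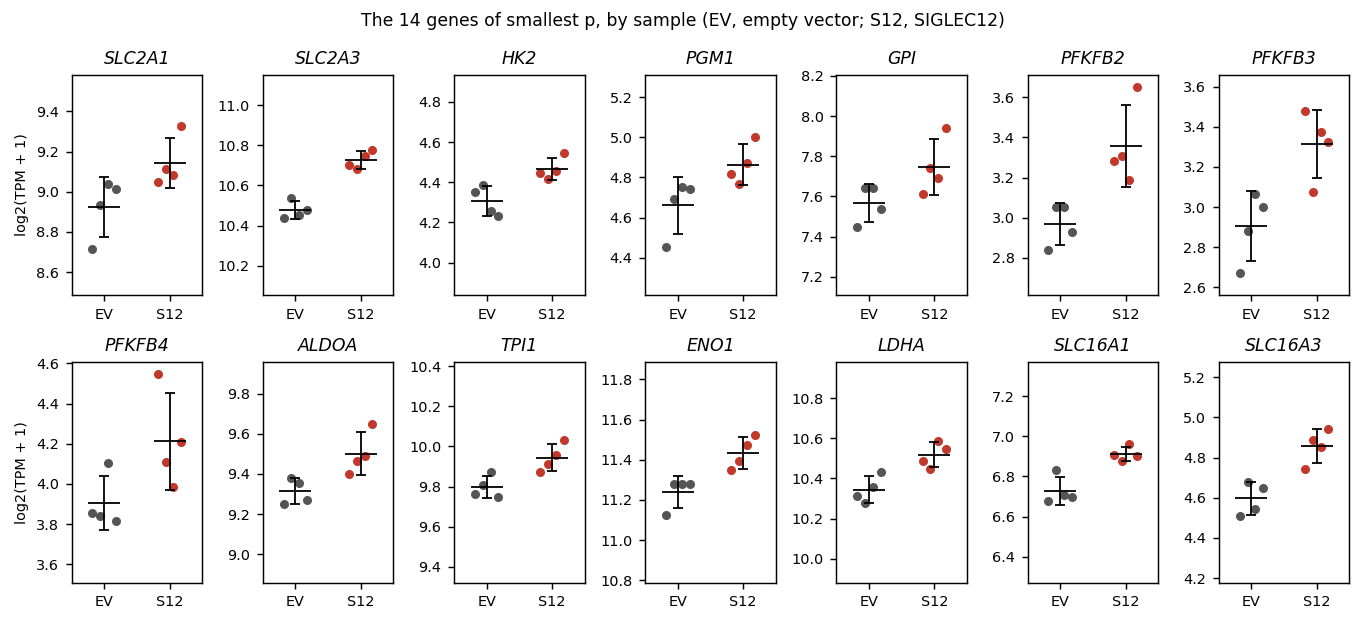
The 14 genes of smallest p, each point 1 sample in log2(TPM + 1), with bars at the group mean ± SD and every panel drawn over the same span of 1.1 log2 units. The SLC2A3 groups are tight and well apart, while in SLC2A1, PGM1, PFKFB2 and PFKFB4 1 sample stands off from the rest of its group.

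At lactate formation and transport, 3 of the 4 genes were higher at an unadjusted p of 0.05 or less, against 13.9% of all entries. The exception was LDHB. LDHA (ENSG00000134333, chr11:18416107-18429972), the subunit that favours pyruvate to lactate, was at 1269.8, 1239, 1310.1 and 1379 TPM with empty vector and 1434, 1395, 1538 and 1494 TPM with SIGLEC12. The highest empty vector sample was just below the lowest SIGLEC12 sample. Between the group means lay a log2 difference of 0.17 (SE 0.0498, 95% interval 0.06 to 0.29, limma, Benjamini-Hochberg adjusted p = 0.15). LDHB (ENSG00000111716, chr12:21788276-21910791, minus strand), the subunit that favours lactate to pyruvate, was at 1331, 1377, 1417 and 1461 TPM and 1405, 1404, 1443 and 1401 TPM. All SIGLEC12 values of LDHB fell inside the empty vector range, and the log2 difference was 0.02 (SE 0.0417, 95% interval -0.08 to 0.11, limma, Benjamini-Hochberg adjusted p = 0.867).

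The balance between the subunits was computed within each sample, so a common scaling of a sample cancels from it. LDHB made up 51.2, 52.6, 52.0 and 51.4% of the TPM of LDHA and LDHB in the empty vector samples and 49.5, 50.2, 48.4 and 48.4% in the SIGLEC12 samples. Every SIGLEC12 sample was below every empty vector sample. The means were 51.8 ± 0.644% and 49.1 ± 0.872% (SD, n = 4 each), a difference of -2.69 percentage points. The two-sided exact permutation p was 0.0286, the smallest this design allows, and 0.257 after Benjamini-Hochberg adjustment over the 9 isozyme shares compared. The share did not pass, which was fixed by the design, since a share alone at the smallest p cannot reach 0.05 after this adjustment. None of the other 8 shares reached an unadjusted exact permutation p of 0.05. Among them, HK2 made up 25.5 ± 0.489% and 26.0 ± 0.98% of hexokinase TPM, SLC16A3 18.1 ± 0.621% and 19.0 ± 1.08% of that of the lactate transporters, and PDK1 39.2 ± 6.16% and 34.8 ± 3.36% of that of the kinases, with empty vector and with SIGLEC12.

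**Figure D5:**
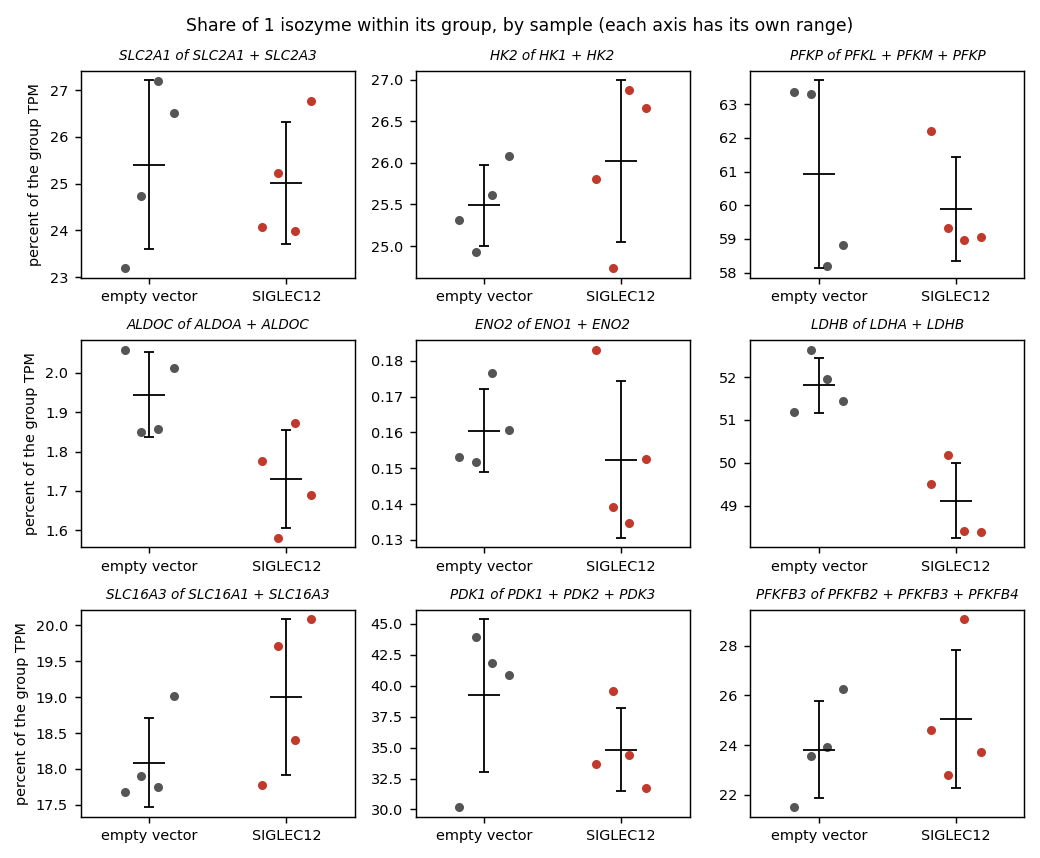
Share of 1 isozyme in the summed TPM of its group, in percent, with a point for each sample and bars at the mean ± SD (each panel has its own axis range, which does not start at 0). The LDHB panel is the one where the groups are separate, at 51.2 to 52.6% and 48.4 to 50.2%.

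Lactate leaves and enters cells through the monocarboxylate transporters. SLC16A3 (ENSG00000141526, chr17:80175810-80219005) encodes MCT4, the exporter of cells with high glycolysis, and was at 21.8, 24.6, 22.4 and 24.1 TPM with empty vector and 25.7, 28.6, 27.9 and 29.8 TPM with SIGLEC12. All SIGLEC12 samples were above the empty vector samples. The fit gave a log2 difference of 0.26 (SE 0.0656, 95% interval 0.11 to 0.41, limma, Benjamini-Hochberg adjusted p = 0.114). SLC16A1 (ENSG00000155380, chr1:113454469-113500215, minus strand) encodes MCT1, which carries lactate and other monocarboxylates, among them butyrate in the colon. It was at 101, 113, 104 and 103 TPM with empty vector and 119, 117, 124 and 118 TPM with SIGLEC12, again without overlap, and the log2 difference was 0.18 (SE 0.0464, 95% interval 0.08 to 0.29, limma, Benjamini-Hochberg adjusted p = 0.115).

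A further entry with the symbol SLC16A1 held the same values in every sample, so the gene's level would be the sum of both while its fold change in TPM is unchanged. The SLC16A3 share above was computed with 1 of these entries. MCT1 and MCT4 need the chaperone basigin to reach the surface. Its gene, BSG, was at 231 ± 14.6 TPM with empty vector and 259 ± 15.3 TPM with SIGLEC12, a log2 difference of 0.17 (SE 0.0594, limma, Benjamini-Hochberg adjusted p = 0.219), with no overlap between the groups.

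Pyruvate entry into mitochondria gave no gene at an unadjusted p of 0.05 or less, against 13.9% of all entries higher and 2.61% lower. Its 4 genes pointed both ways. MPC1 (ENSG00000060762, chr6:166778407-166796501, minus strand) and MPC2 (ENSG00000143158, chr1:167885913-167906310, minus strand) form the mitochondrial pyruvate carrier together. MPC1 was at 13.7, 15.01, 14.6 and 15.01 TPM with empty vector and 10.8, 12.03, 13.6 and 14.8 TPM with SIGLEC12, with the 3 lowest values, 2 of them well apart, in SIGLEC12 replicates 1 to 3. Its log2 difference was -0.18 (SE 0.0951, 95% interval -0.40 to 0.03, limma, Benjamini-Hochberg adjusted p = 0.368). MPC2 was at 9.95, 9.53, 9.54 and 15.2 TPM and 11.6, 13.7, 14.6 and 13.6 TPM. Empty vector replicate 4 was the highest of all 8 samples and the other 3 empty vector samples the lowest, and the log2 difference was 0.27 (SE 0.144, 95% interval -0.05 to 0.60, limma, Benjamini-Hochberg adjusted p = 0.375). For both carrier subunits the groups overlapped and the interval included 0. MPC1 was lower at an unadjusted limma p of 0.05 or less at the other scalings tried and with the trend along transcript length removed. It was also lower at that p without SIGLEC12 replicate 4, alone or with empty vector replicate 1. These fits called from 2.58 to 5.85% of all entries lower. MPC2 was higher at that p without empty vector replicate 4, in a fit that called 12.4% of all entries higher.

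PDHA1 (ENSG00000131828, chrX:19362011-19379836), the catalytic alpha subunit of pyruvate dehydrogenase, was at 320.0, 284, 282 and 286 TPM with empty vector and 326, 314, 301 and 295 TPM with SIGLEC12. The beta subunit PDHB (ENSG00000168291, chr3:58413357-58419584, minus strand) was at 111, 103, 95.05 and 106 TPM and 98.4, 102, 97.6 and 106 TPM. Both sets of groups overlapped, with log2 differences of 0.08 (95% interval -0.05 to 0.20) and -0.04 (95% interval -0.16 to 0.09). Without empty vector replicate 1, alone or with SIGLEC12 replicate 4, PDHA1 was higher at an unadjusted limma p of 0.05 or less. Those fits called 10.3 and 8.61% of all entries higher.

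The kinases that switch the enzyme off were low. PDK2 (ENSG00000005882, chr17:48172101-48189516), the most abundant, was at 30.1, 18.4, 20.8 and 22.2 TPM with empty vector and 24.9, 21.4, 23.97 and 31.6 TPM with SIGLEC12. Its highest values came from empty vector replicate 1 and SIGLEC12 replicate 4, and the log2 difference was 0.16 (SE 0.155, 95% interval -0.19 to 0.51, limma, Benjamini-Hochberg adjusted p = 0.65). PDK1, a known target of the hypoxia-inducible factors, was at 16.8 ± 1.56 TPM with empty vector and 15.8 ± 1.18 TPM with SIGLEC12 (SD, n = 4 each), with a log2 difference of -0.08 and a 95% interval of -0.27 to 0.11. PDK3 was at 3.66 ± 0.339 TPM with empty vector and 4.43 ± 0.244 TPM with SIGLEC12 (SD, n = 4 each), without overlap, with a log2 difference of 0.22 (limma, Benjamini-Hochberg adjusted p = 0.291). PDK4 did not pass the filter, at 0.136 ± 0.147 and 0.0332 ± 0.0177 TPM.

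Processed pseudogenes resemble several of these genes closely enough to take reads from them. Of the 32, 13 had pseudogene entries in the table, which summed to at most 0.712% of the total with the gene (PGAM1). Adding them moved no log2 difference by more than 0.01. Exact permutation tests of the 13 sums gave 0 calls after Benjamini-Hochberg adjustment, the lowest adjusted p being 0.0619, and 6 sums were at the smallest p of 0.0286.

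The rest of the pathway was read from lists of neighbouring genes, 108 symbols of which 76 were tested. In limma, 0 of the 76 passed at an adjusted p of 0.05, and 13 were higher and 1 lower at an unadjusted p of 0.05 or less, 17.1% and 1.32% of the 76, against 13.9% and 2.61% of all entries. The higher count was 4 with quantile normalization and with equal upper quartiles, 6 or 7 in the rescaled fits and 2 with the length trend removed, each with 2 lower. Their median log2 difference was 0.10. Glycogen genes gave 4 of 13, among them the synthase GYS1, at 71.4 ± 3.57 and 80.9 ± 3.33 TPM, and the phosphorylase PYGB, at 35.5 ± 2.38 and 41.8 ± 4.08 TPM (SD, n = 4 each). The pentose phosphate pathway gave 1 of 7 (RPIA), other isozymes and transporters 1 of 14 (BSG), and partners of pyruvate dehydrogenase 0 of 9. Gluconeogenesis gave 0 of 4. The citric acid cycle gave 2 of 14 higher, MDH2 and SDHA, and 1 lower, SUCLG2, a subunit of succinyl-CoA synthetase, with a log2 difference of -0.18 (limma, Benjamini-Hochberg adjusted p = 0.234).

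Regulators gave 5 of 15 higher at that unadjusted p, against 13.9% of all entries. MYC, a transcription factor that drives many glycolytic genes, was at 143 ± 6.72 TPM with empty vector and 162 ± 4.36 TPM with SIGLEC12, a log2 difference of 0.18 (SE 0.0456, limma, Benjamini-Hochberg adjusted p = 0.115), without overlap. EGLN1, the oxygen sensor that marks hypoxia-inducible factors for destruction, had a log2 difference of 0.27 (limma, Benjamini-Hochberg adjusted p = 0.201). TXNIP, which limits glucose uptake, had one of 0.20 (limma, Benjamini-Hochberg adjusted p = 0.205). HIF1A RNA was at 141 ± 8.05 and 141 ± 12.01 TPM, a log2 difference of -0.0028 (limma, Benjamini-Hochberg adjusted p = 0.988), and EPAS1 at 194 ± 12.5 and 198 ± 5.28 TPM.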

How the data were processed

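RNA of 8 Caco-2 samples was sequenced by the authors as paired reads of 100 bases. The deposited table holds log2(TPM + 1) values for 63816 entries, which the authors made with kallisto (0.45.0 in the submitters' processing notes) on hg19. The library kit and the kallisto version differ between the labels and the study's methods. All 8 value columns were used. The labels give about 25000000 to 40000000 reads per sample. TPM does not keep each sample's count, so the precision rests on the 4 samples of each group.

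Members, lists and tests were chosen with earlier results of these data known. Gene positions came from GENCODE release 44 lifted to GRCh37, which held the gene ID of 86.9% of entries, and promoter windows from RefSeq on GRCh38.p14. Groups were compared in limma 3.58.1 (R 4.3.3) with lmFit and eBayes with a mean-variance trend, two-sided, on log2(TPM + 1), over entries of at least 1 TPM in at least 4 samples, with Benjamini-Hochberg adjustment over all 15590. Fold changes on this scale are understated for rare genes. Isozyme shares, pseudogene sums and SIGLEC12 were compared by exact permutation over all 70 labellings. Full statistics were given for the 14 members of smallest p among those at 0.05 or less and for the most abundant isozyme of each step. The fitting step was tested on simulated data. Alternatives covered the pseudocount, the filter, scaling, transcript length, sample weights, repeated entries and samples left out. Fits leaving out empty vector replicate 1 with SIGLEC12 replicate 4, summing SLC2A14 with SLC2A3, and rescaling with the members kept were chosen after seeing the data.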

Additional observations from a re-analysis of the deposited data

Results flagged for a closer look

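Of 86 groups of 4 values looked at, 10 had 1 sample whose gap to its nearest neighbour passed Dixon's 95% critical value as a share of the group's range, where chance gives about 1 in 20. In the empty vector group these were PFKL (0.923), PGAM1 (0.919), ENO1 (0.976) and the summed level of the 32 genes (0.917), each with replicate 1 as the low sample. In the same group PDHA1 (0.879) had replicate 1 as the high sample, PFKFB4 (0.851) had replicate 3 and MPC2 (0.910) had replicate 4. The share of SLC16A3 in the TPM of SLC16A1 and SLC16A3 (0.838) was set apart by empty vector replicate 4, the highest at 19.0%. In the SIGLEC12 group, LDHB (0.900) had replicate 3 as the high sample, and the share of PFKP among the phosphofructokinases (0.894) had replicate 1 as the high sample, at 62.2%. Genes and shares from 1 sample are not independent of each other.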

How the results depend on the processing

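Over 761 values of single genes under the alternatives, 734 kept their direction and their side of an adjusted p of 0.05. Since SLC2A3 alone was called, keeping the side meant staying uncalled for every other gene. The remaining values were 13 that lost the call of SLC2A3 and 14 that changed sign. The call of SLC2A3, the 1 member called, was lost in limma (0 members called) without a filter, with equal upper quartiles, with no mean-variance trend, with the trend along transcript length removed, in the replicate block fit (adjusted p = 0.127), and with empty vector replicate 1 and SIGLEC12 replicate 4 both left out. With mitochondrial and the 100 most abundant entries left out of the table, SLC2A3 itself was among those removed and 0 of the other members were called. In these fits the unadjusted count of higher members stayed between 7 and 16. Leaving out 1 sample gave 0 to 1 called members, 9 to 15 higher and 0 to 1 lower at an unadjusted p of 0.05 or less, and 40 to 154 called entries in all. Members higher at that p numbered 7 with equal upper quartiles, 7 of the 27 left without mitochondrial and the 100 most abundant entries (against 8.4% of entries) and 7 with the length trend removed, each with 1 lower, against 15 and 0 as reported. Quantile normalization, rescaling with the members kept, and leaving out both named samples also gave 1 lower. The median member difference was 0.093 with the length trend removed. Scaling moved the split of all calls from 53 higher and 48 lower to 28 and 58 with quantile normalization, 24 and 58 with equal upper quartiles, 24 and 48 without the mitochondrial and most abundant entries and 25 and 48 with the members kept. Called entries, 101 as reported, were 51 without a filter, 54 with no trend, 58 among protein-coding entries, 65 with the length trend removed and 31 without both samples. Among the neighbouring genes, the higher count of 13 became 4 with quantile normalization and 4 with equal upper quartiles, 7 and 6 in the rescaled fits, 2 with the length trend removed and 5 without both samples, and 8 to 19 with 1 sample left out. The lower count of 1 became 2 in each scaling fit, without a filter and with the length trend removed, and ran from 0 to 2 with 1 sample left out. ALDOC changed sign to -0.0527 with quantile normalization, -0.0442 with equal upper quartiles, -0.0274 in both rescaled fits, -0.0363 with the length trend removed and -0.0156 without both samples, and ran from -0.0228 to 0.0638 with 1 sample left out. LDHB became -0.0439 with equal upper quartiles, -0.0251 when rescaled, -0.0177 with the length trend removed and -0.00063 without both samples, and ran from -0.0049 to 0.0398 with 1 sample left out, and PDHA1 became -0.00013 with the length trend removed. The SLC2A1 share changed by -1.13 to 0.203 points and the PFKFB3 share by -0.114 to 2.04 points with 1 sample left out, and the LDHB share by -3.04 to -2.41 points. Same-numbered samples correlated at -0.0742 to 0.0591, and 4 of 8 correlated best with their own number. Correlations so weak, from 4 samples per group, cannot decide whether the numbers pair the samples, and the reported fit did not pair them. The replicate block gave 16 higher and 0 lower members at an unadjusted p of 0.05 or less, against 12.8% and 3.01% of entries, and 69 called entries. The cause of these changes was not tested. TPM holds no counts, so counting error was not computed from the labels' approximate depth. It weighs most on the 4 genes under 10 TPM.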
